A study of Mus musculus with 8 samples.

Results

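The leptomeninges, the pia and arachnoid that wrap the spinal cord, are built by fibroblasts with a characteristic set of genes. Here 10 such genes, Dcn, Lum, Ogn, Fmod, Igf2, Foxd1, Aldh1a2, Ptgds, Slc6a13 and Slc22a6, were taken by name from the 55291 genes of the deposited counts, and all 10 were among the 19470 genes expressed highly enough to be tested. They were followed in the lumbar cords of 8 male SOD1G93A mice, a model of amyotrophic lateral sclerosis that carries a mutant human SOD1 transgene, to ask how much meninges each cord sample held and whether the genes differed with deletion of Ager, which encodes the receptor RAGE. In 4 mice, E1776, E5231, E5248 and E5568, Ager was flanked by loxP sites on both alleles (SOD1G93A Ager fl/fl Cx3cr1 Cre/+, called Ager-deleted). The other 4, E5386, E5642, E6578 and E6732, had wild-type Ager (SOD1G93A Ager +/+ Cx3cr1 Cre/+, called Cre-expressing controls). All 8 mice were of the C57BL/6J background, carried the transgene and 1 allele of tamoxifen-inducible Cre at Cx3cr1, and were injected with tamoxifen. The labels give tamoxifen at 12 weeks and an age of 120 days, while the study's text gives a slightly later age for tamoxifen and describes tissue at end-stage. Cre acts in Cx3cr1-expressing cells, chiefly microglia, so leptomeningeal fibroblasts were not its target, and the RNA was from whole cord with no cell type isolated.

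Leptomeningeal fibroblasts secrete the collagens and small leucine-rich proteoglycans of the pial and arachnoid matrix, release retinoic acid and growth factors, and carry solutes between cerebrospinal fluid and blood. The pia lies directly on the cord and continues onto the spinal roots, whose own sheaths also hold fibroblasts. In whole-tissue RNA, fewer fibroblasts and less RNA per fibroblast cannot be told apart.

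Of the 10 genes, 4 encode small leucine-rich proteoglycans. On GRCm38 (mm10), Dcn (chr10:97479609-97518143) and Lum (chr10:97565128-97572703) lie on the forward strand, 46984 bases apart. Ogn (chr13:49608046-49624501) is 15223 bases from Omd, a further member of the family, and both lie within Cenpp on the opposite strand. Fmod is at chr1:134037254-134048277. Igf2 (chr7:142650766-142666816, reverse strand) overlaps Gm49394 on its own strand and Igf2os on the other, so its reads are uncertain. Foxd1 is at chr13:98354242-98359305, Slc6a13 at chr6:121300227-121337733, and Slc22a6 at chr19:8618039-8628299, next to its relative Slc22a8. Aldh1a2 is at chr9:71215789-71296243 and overlaps a processed pseudogene on the opposite strand, and Ptgds is at chr2:25466709-25470046 on the reverse strand. All 10 are protein-coding.

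Promoter windows of 300 bases, 250 before and 50 after a transcript start, were available from RefSeq (GRCm38.p6) for 8 of the 10 genes, as 13 windows. Shown are Ogn, the gene with the widest ratio of the highest to the lowest cord (55.4), Slc6a13, and Ptgds, the only gene with an unadjusted p-value under 0.05 between the genotypes. Slc6a13 was the gene with the highest Pearson's r with the other 9 over all 8 mice, though not without E5386. It has further windows, not shown, and none of those holds a motif marked here. Capitals mark the core letters GGAATG (the TEAD core), TATAA (the TATA box core) and TGANTCA (the AP-1 core), searched on both strands. In Ogn the forward and reverse matches to TATAA overlap, and TGANTCA reads alike on both strands. The windows are chr13:49607765-49608064 (forward strand) for Ogn, chr6:121300038-121300337 (forward) for Slc6a13 and chr2:25469700-25469999 (reverse) for Ptgds.
Ogn: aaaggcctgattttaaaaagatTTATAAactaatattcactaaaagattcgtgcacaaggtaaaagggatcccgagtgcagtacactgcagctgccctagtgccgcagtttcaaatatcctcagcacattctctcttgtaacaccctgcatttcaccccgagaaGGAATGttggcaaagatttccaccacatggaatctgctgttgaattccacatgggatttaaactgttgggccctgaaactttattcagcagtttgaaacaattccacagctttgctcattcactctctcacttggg
Slc6a13: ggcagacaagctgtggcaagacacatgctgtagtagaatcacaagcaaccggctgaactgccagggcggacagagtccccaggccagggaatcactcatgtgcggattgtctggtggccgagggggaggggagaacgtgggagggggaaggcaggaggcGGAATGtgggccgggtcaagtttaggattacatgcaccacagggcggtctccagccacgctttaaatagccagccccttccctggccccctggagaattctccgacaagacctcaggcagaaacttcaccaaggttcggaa
Ptgds: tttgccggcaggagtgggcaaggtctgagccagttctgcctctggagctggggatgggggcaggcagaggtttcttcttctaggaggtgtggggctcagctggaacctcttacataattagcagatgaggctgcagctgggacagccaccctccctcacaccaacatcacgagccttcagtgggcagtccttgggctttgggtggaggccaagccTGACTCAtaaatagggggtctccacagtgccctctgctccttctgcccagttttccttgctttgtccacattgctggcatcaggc
GGAATG was in 6 of the 13 windows, from Ogn, Slc6a13, Slc22a6 and Igf2 (3 of them from Igf2), and in 14.7% of all 32851 windows. TATAA was in 3 windows, from Ogn, Foxd1 and Igf2, and in 24.9% of all windows. TGANTCA was in the Ptgds window alone among the members and in 7.81% of all windows. The forkhead core TGTTTAC was in none of the 13 and in 3.65% of all windows, and the E-box CANNTG, left in lower case, was in 10 of the 13 and in 72.3% of all. The windows had no common base composition, from Aldh1a2 at 78.0% G and C with 50 CpG sites to Ogn at 42.3% with 4, against a median of 52.7% with 7 CpG over all windows.

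The authors' counts summed to between 31148047 and 40324897 per mouse, at which 3 counts, taken as the floor of detection, equal 0.0744 to 0.0963 CPM, the count scaled to the total of the library. CPM values of genes are scaled to that total multiplied by the library's TMM factor (0.955 to 1.02). No pair of libraries was the same within sampling noise (chi-square per degree of freedom 15.7 to 117 over 28 pairs). Ager itself had 0.889, 1.51, 1.02 and 1.34 CPM among Ager-deleted mice and 1.53, 2.22, 2.18 and 2.41 CPM among controls. On this scale every Ager-deleted mouse was below every control (p = 0.0286 by exact two-sided permutation of the mean log2 CPM, the lowest value that groups of 4 can give). Ager-deleted E5231 and control E5386 each held 56 counts of Ager, and without the TMM factors they were at 1.533 and 1.531 CPM, so the genotypes then overlapped (p = 0.0571 by the same exact permutation, a scaling added after the data were seen). Several cords also held markers of tissue outside the cord, summarised as the mean log2(CPM + 1) of a marker list. Skeletal muscle markers scored 5.46 in E5386 and 5.86 in E5642 against 1.44 to 1.97 in the other 6, and hepatocyte markers scored 6.21 in E6732 against 2.15 to 2.36 in the other 7. Myelinating Schwann cell and nerve root markers scored 2.24 in E5386 against 3.87 to 4.98 in the other 7. The members' genotype differences are therefore also given without E5386, without E5642 and without E6732.

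The 10 genes spanned a wide range of abundance. Per kb of exon, Ptgds was the highest, at a mean over all mice of 351 CPM per kb, followed by Fmod at 44.1, Ogn at 28.0, Dcn at 23.4, Lum at 6.96, Aldh1a2 at 4.56, Slc6a13 at 3.59, Igf2 at 0.406, Foxd1 at 0.268 and Slc22a6 at 0.209. Ptgds is also made by oligodendrocytes in the central nervous system, so its level is not specific to meninges. In the sentences that follow, CPM values are in the order E1776, E5231, E5248 and E5568 for Ager-deleted mice and E5386, E5642, E6578 and E6732 for controls.

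**Figure D1:**
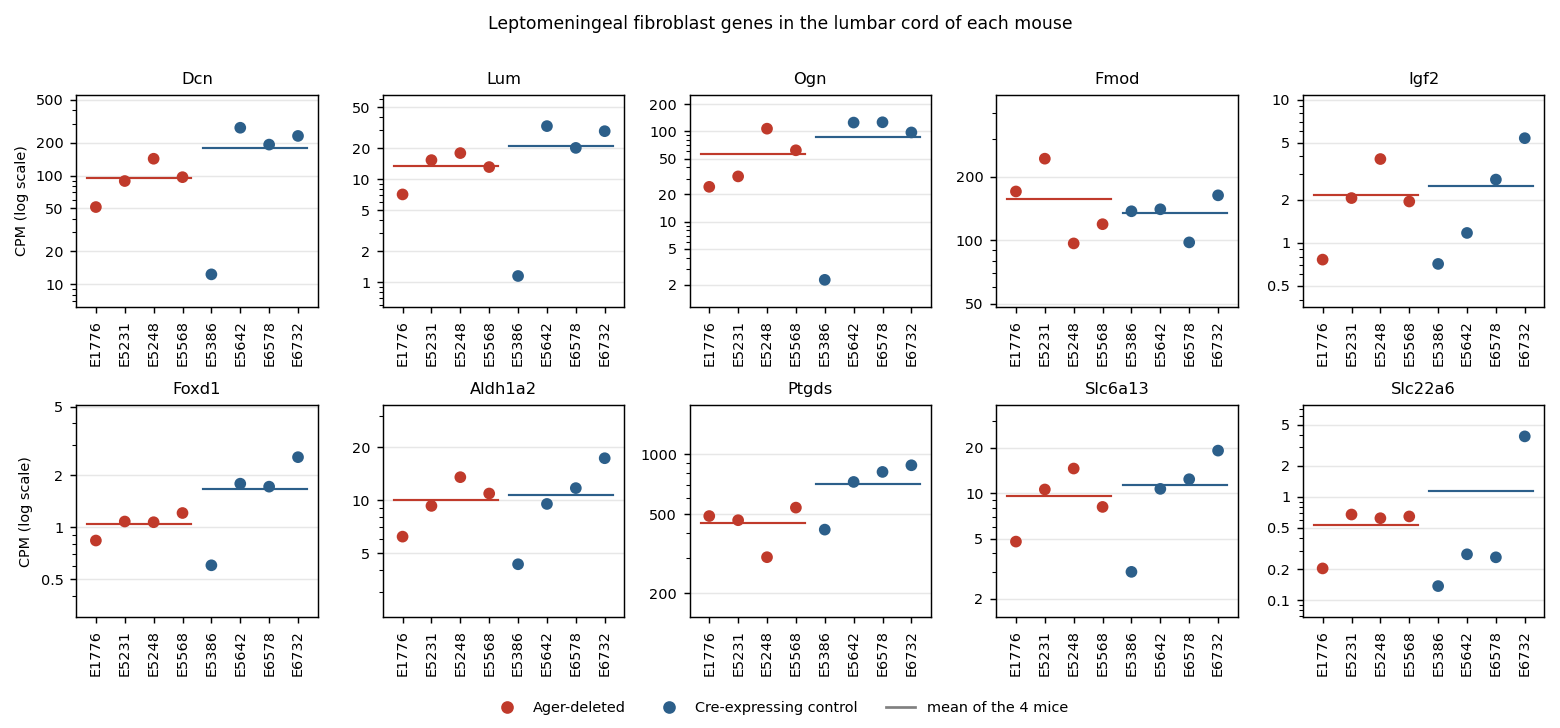
Level of each gene in each mouse, as CPM on a log axis that differs between panels, with 1 point per mouse and a line at the mean of the 4 mice of a genotype. Control E5386 was the lowest mouse for 8 of the 10 genes, with Ogn at 2.27 CPM, and control E6732 was the highest for 6, with Slc22a6 at 3.84 CPM.

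Decorin (Dcn), which binds collagen fibrils and growth factors, was at 51.3, 89.1, 143 and 96.7 CPM in Ager-deleted mice. In controls it was at 12.3, 276, 193 and 232 CPM. The other 3 controls were above every Ager-deleted mouse and E5386 was below every one. Lumican (Lum), a keratan sulfate proteoglycan of collagenous matrix, was at 7.11, 15.3, 17.9 and 13.1 CPM in Ager-deleted mice, and at 1.15, 32.7, 20.1 and 29.2 CPM in controls. The order was again E5386 lowest, the Ager-deleted mice between, and the other 3 controls highest. Osteoglycin (Ogn), which regulates collagen fibril assembly, was at 24.3, 31.7, 107 and 61.7 CPM in Ager-deleted mice and at 2.27, 125, 126 and 97.2 CPM in controls. Here Ager-deleted E5248 lay among the controls, and E1776, E5231 and E5568 were below 3 of the 4 controls and above E5386. Fibromodulin (Fmod), the fourth proteoglycan, was at 170, 243, 96.5 and 119 CPM in Ager-deleted mice and at 137, 140, 97.6 and 163 CPM in controls. It did not follow the others: E5386 was in the middle of its range and E5231 was the highest mouse.

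Igf2, an insulin-like growth factor that leptomeninges release into cerebrospinal fluid, was at 0.762, 2.05, 3.84 and 1.94 CPM in Ager-deleted mice and at 0.711, 1.17, 2.76 and 5.37 CPM in controls. The genotypes overlapped along the whole range, on 26 to 221 counts per mouse. Foxd1, a forkhead transcription factor of stromal cells, was at 0.838, 1.08, 1.07 and 1.21 CPM in Ager-deleted mice and at 0.602, 1.79, 1.72 and 2.55 CPM in controls. E5386 was again the lowest mouse, and the other 3 controls were above all 4 Ager-deleted mice, on 22 to 105 counts. Aldh1a2, the enzyme that makes retinoic acid from retinal, was at 6.20, 9.27, 13.5 and 10.9 CPM in Ager-deleted mice and at 4.32, 9.51, 11.7 and 17.3 CPM in controls. Its genotypes overlapped throughout. Ptgds, the lipocalin-type prostaglandin D synthase of cerebrospinal fluid, was at 489, 466, 304 and 539 CPM in Ager-deleted mice and at 418, 725, 814 and 879 CPM in controls. Only E5386 among the controls lay within the range of the Ager-deleted mice.

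Slc6a13, a transporter of GABA and taurine, was at 4.78, 10.6, 14.6 and 8.12 CPM in Ager-deleted mice and at 3.01, 10.7, 12.4 and 19.2 CPM in controls. E5386 and E1776 were its lowest mice and E6732 its highest. Slc22a6, an organic anion transporter best known from the kidney proximal tubule, was at 0.203, 0.674, 0.621 and 0.646 CPM in Ager-deleted mice and at 0.137, 0.278, 0.260 and 3.84 CPM in controls. E6732 alone held 158 counts of it, against 5 to 25 in the other 7. Of 8 kidney tubule markers, a list chosen after the data were seen, 6 (Slc34a1, Kap, Umod, Miox, Slc5a2 and Cdh16) had at most 3 counts in every mouse. The remaining markers were Aqp2 and Slc12a1. Aqp2 had 9 counts in E6732, its highest mouse, against 1 to 4 in the other 7. Slc12a1 had 16 counts in E6732 and 6 to 27 in the other 7. In E6732 the hepatocyte marker Alb was at 452 CPM, against 0.0618 to 0.762 CPM in the other 7, and its part in the value of Slc22a6 was not tested.

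E5386 was not low to the same degree in all 10 genes. As a percentage of the median of the other 7 mice, this control held 2.34% of Ogn, 6.43% of Lum and 8.59% of Dcn. It held 22.0% of Slc22a6, 28.1% of Slc6a13, 34.7% of Igf2, 39.7% of Aldh1a2 and 49.5% of Foxd1, while Ptgds was at 77.5% and Fmod at 97.4%. E5386 was the lowest mouse for 8 of the 10 genes, as it was for 9.40% of the 16081 genes with a mean of at least 1 CPM. It was also lowest for 31 of 46 other pial and arachnoid genes tested (median 61.0% of the other mice), for 9 of 11 Schwann cell and nerve root genes (median 30.4%) and for 6 of 9 border macrophage genes (median 47.9%). By contrast the medians were 106% for 10 astrocyte genes, 106% for 12 oligodendrocyte genes, 89.8% for 12 neuron genes and 98.2% for 12 endothelial genes. Among Ager-deleted mice E1776 was the lowest for the same 8 genes, and E5386 and E1776 were the lowest pair of mice for all 8.

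**Figure D2:**
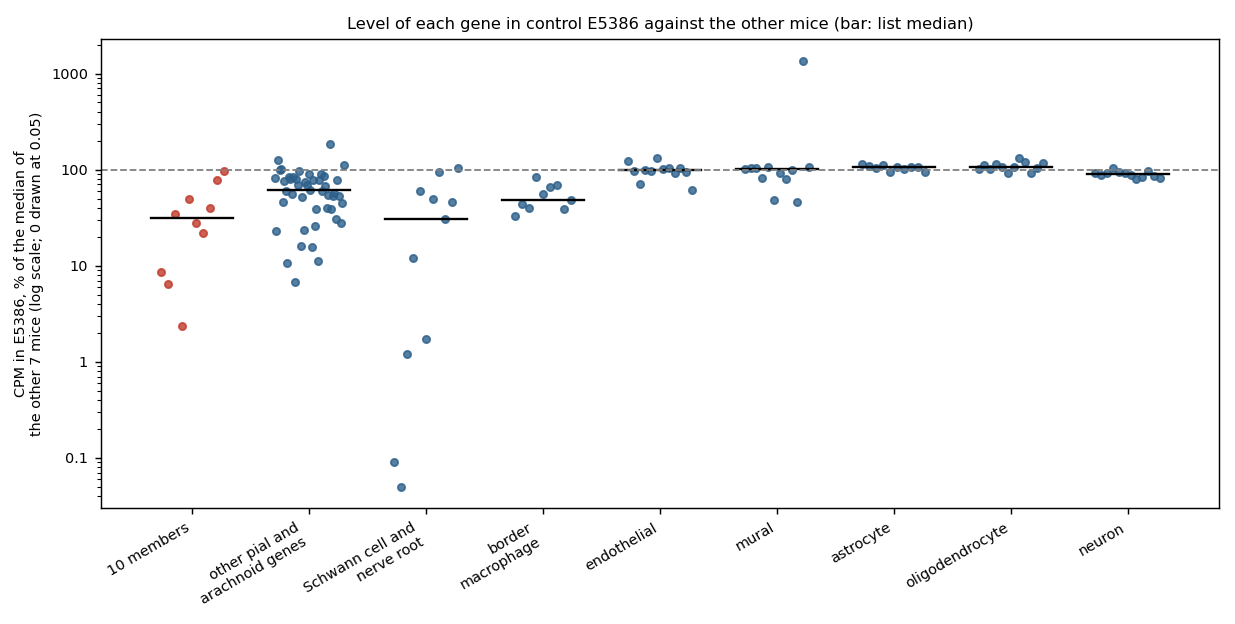
Each point is a gene, placed at its CPM in control E5386 as a percentage of the median of the other 7 mice, on a log axis, and the bars are medians of each list. The 10 members had a median of 31.4% and the Schwann cell and nerve root genes 30.4%, while the medians of neuron, astrocyte, oligodendrocyte, endothelial and mural genes lay between 89.8% and 106%. Single genes of these lists lay further off, from the mural gene Cnn1 at 46.5% and the endothelial gene Vwf at 60.9% up to Des, counted as mural and also a muscle gene.

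The ratio of members to each other was steadier for some pairs than for others. Ogn over Slc6a13 was 5.09, 2.99, 7.31 and 7.61 in Ager-deleted mice and 0.755, 11.7, 10.1 and 5.06 in controls, a 15.5-fold range. Dcn over Slc6a13 had a 6.33-fold range, from 4.07 in E5386 to 25.8 in E5642. Lum over Dcn varied only 1.83-fold, from 0.0938 to 0.172, and Aldh1a2 over Slc6a13 only 1.65-fold, from 0.873 to 1.44. These pairs were chosen after the values were seen. The Schwann cell and nerve root score, which was 2.24 in E5386 and 3.87 to 4.98 in the other 7 mice, was lowest in the same mouse as Ogn, Dcn and Lum. The part of nerve root tissue in the values of Ogn, Dcn and Lum was not tested beyond a fit with this score as a covariate, given below.

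**Figure D3:**
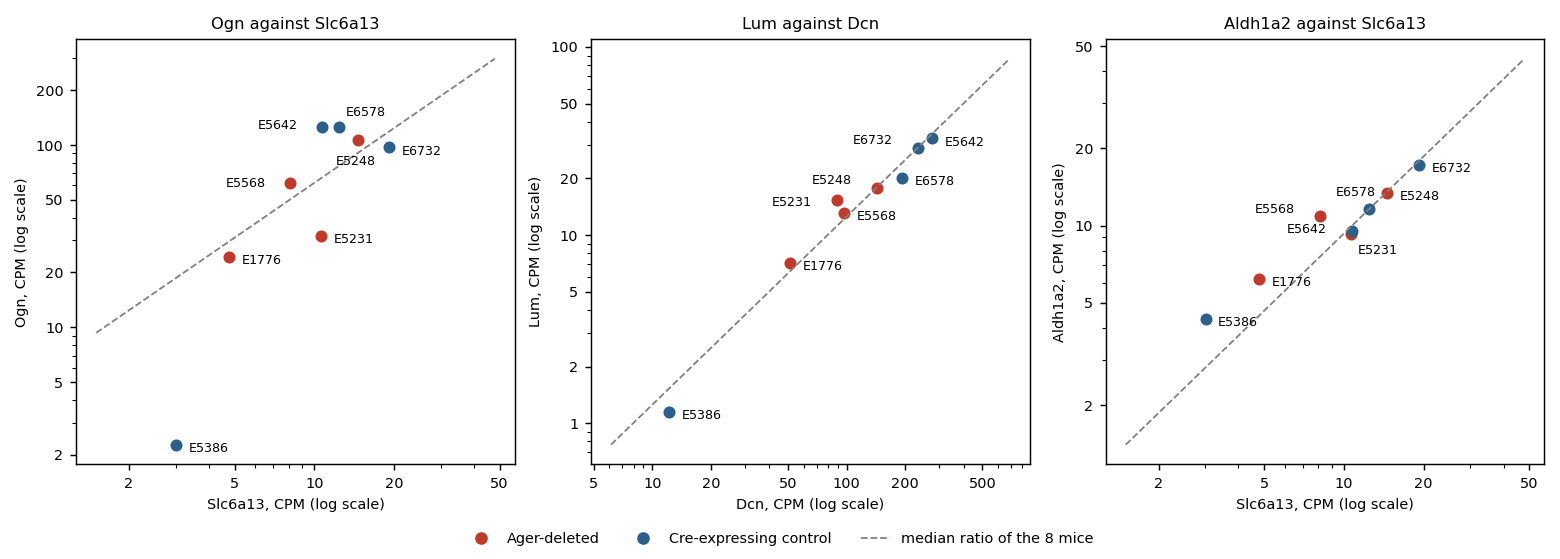
CPM of 3 pairs of members plotted against each other on log axes, with 1 labelled point per mouse, Ager-deleted or Cre-expressing control by colour. Dashed lines mark the median ratio of the 8 mice, from which the points of Lum over Dcn (0.0938 to 0.172) and Aldh1a2 over Slc6a13 (0.873 to 1.44) stray little, whereas Ogn over Slc6a13 ran from 0.755 in E5386 to 11.7 in E5642.

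The genes of the set varied together across cords, with exceptions. On log2(CPM + 1) over the 8 mice, Pearson's r of a gene with the mean of the other 9, each standardized, was 0.93 for Slc6a13, 0.92 for Foxd1, 0.91 for Aldh1a2, 0.90 for Lum and 0.89 for Dcn. It was 0.81 for Ogn, 0.76 for Igf2, 0.68 for Slc22a6, 0.53 for Ptgds and -0.12 for Fmod. Without E5386 it was 0.91 for Foxd1, 0.85 for Slc6a13, 0.81 for both Lum and Aldh1a2, 0.76 for Dcn, 0.57 for Ogn and -0.21 for Fmod. These are descriptions over 8 libraries of one tissue that share its dissection and differ in depth. Fmod, and to a lesser degree Ptgds, did not follow the other 8 genes from cord to cord.

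The genes outside the set most like its mean were Pla2g2d (r = 0.98), Serpinf1 (0.98), Slc13a4 (0.97), Col8a1 (0.97), Bicc1 (0.97), Wnt6 (0.97), Slc6a20a (0.97), Ptpn14 (0.97), Olfml2a (0.96) and Cpxm1 (0.96). Of these, Slc13a4, a sulfate transporter, and Wnt6, a secreted Wnt ligand, were in the list of other pial and arachnoid genes. Slc13a4 was at 2.39, 3.69, 4.20 and 4.34 CPM in Ager-deleted mice and at 0.985, 4.26, 6.08 and 14.6 CPM in controls. Slc6a20a, an amino acid transporter, was at 4.47, 7.14, 8.13 and 8.48 CPM in Ager-deleted mice and at 3.01, 7.60, 7.77 and 16.3 CPM in controls. In both, E5386 was lowest, E1776 next and E6732 highest, with the remaining 5 mice close together. The median r was 0.84 for 42 other pial and arachnoid genes (15 of them over 0.9) and 0.76 for 10 Schwann cell genes, against -0.01 for all 16072 genes compared, of which 65 (0.404%) were over 0.9. Without E5386 these medians were 0.83, 0.58 and -0.05.

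**Figure D4:**
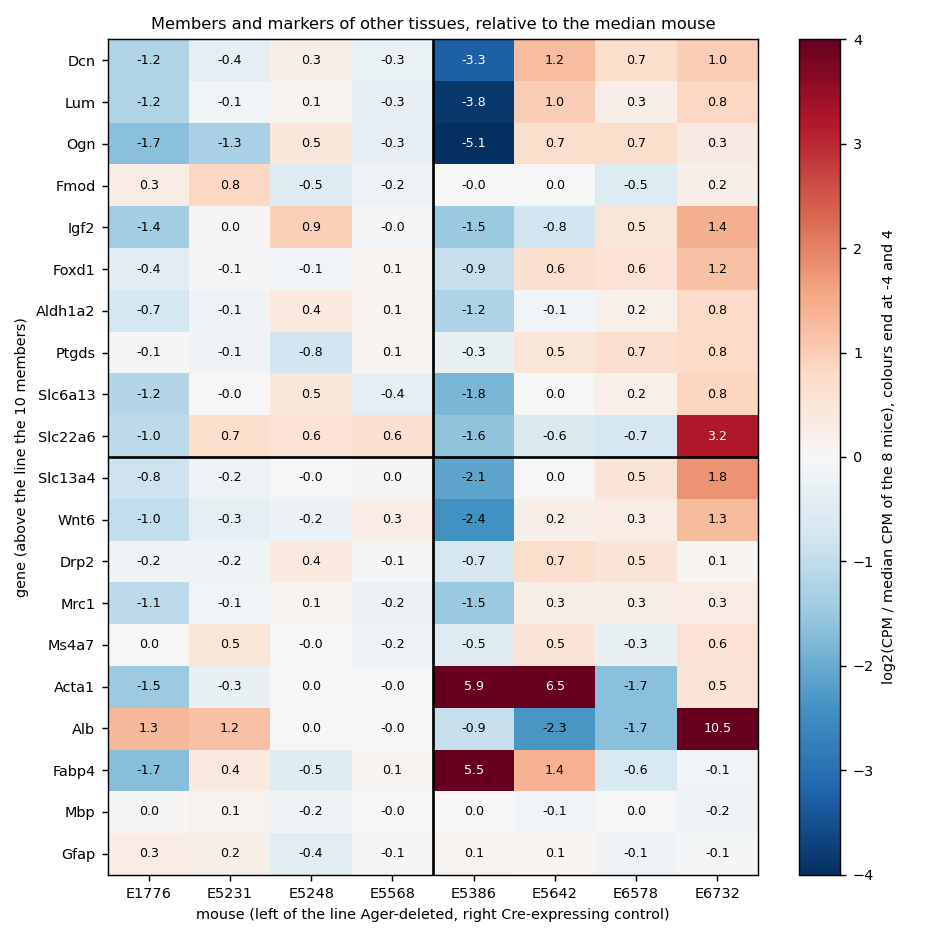
log2 of CPM over the median CPM of the 8 mice, for the 10 members above the line and for markers of other cells and tissues below it, with mice in columns. E5386 stands apart in Dcn, Lum and Ogn, both E5386 and E5642 in the muscle gene Acta1, and E6732 in Slc22a6 and the hepatocyte gene Alb, while Mbp (oligodendrocytes) and Gfap (astrocytes) stayed near the median.

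Averaged over the 10 genes as log2(CPM + 1), the meningeal score was 3.71, 4.27, 4.49 and 4.26 in Ager-deleted mice and 2.84, 4.67, 4.64 and 5.18 in controls. The cord with the least and the 3 cords with the most were all controls. The genotype means were 4.18 ± 0.331 (SD, n = 4) and 4.33 ± 1.03 (SD, n = 4), a difference of -0.15 that was smaller than the spread between controls. Without E5386 the control mean was 4.83 ± 0.306 (SD, n = 3) and the difference was -0.65. The sign turned when either control E6732 (0.13) or Ager-deleted E1776 (0.0025) was left out. No test was made on the score, since its genes were chosen with results of these data known. Summed over the 8 genes other than Ptgds and Fmod, a choice also made after the values were seen, the cords held 95.5, 160, 301 and 194 CPM in Ager-deleted mice and 24.5, 457, 368 and 407 CPM in controls.

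With all 8 mice, 0 of the 10 genes had an adjusted p under 0.05 between genotypes by edgeR's exactTest (Benjamini-Hochberg over all 19470 genes), which called 14 genes (0.0719%) in all. Only Ptgds had an unadjusted p under 0.05, as did 829 (4.26%) of all genes. Also 0 of the 10 were called by edgeR's quasi-likelihood test and limma-voom (0.00514% of genes each), by DESeq2 (0.128%) and by exactTest on common and tagwise dispersions (0.401%), again with 1 of the 10 at an unadjusted p under 0.05 in each. For 9 genes the mean was lower in Ager-deleted mice, and Fmod was the exception. Ptgds averaged 449 ± 102 CPM in Ager-deleted mice and 709 ± 204 CPM in controls (SD, n = 4 each), a log2 fold change of -0.66 (standard error 0.23). The adjusted p was 0.613 by exactTest and 0.742 by quasi-likelihood. Dcn averaged 94.9 ± 37.5 and 178 ± 116 CPM (SD, n = 4 each), a log2 fold change of -0.91 (standard error 0.66, adjusted p = 1 by exactTest). The log2 fold changes of the other 8 genes lay between -1.08 (Slc22a6) and 0.23 (Fmod), and for Lum, Ogn, Fmod, Igf2, Aldh1a2 and Slc6a13 the standard error exceeded the size of the log2 fold change. The genotypes overlapped for each of the 10 genes, whereas 755 (3.88%) of the tested genes had no overlap.

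The genotype comparison turned on E5386. Without it, 4 genes (Dcn, Lum, Foxd1 and Ptgds) had every Ager-deleted mouse below every remaining control, as had 4.82% of 19716 genes tested in these 7 mice. Dcn was then at a mean of 234 ± 41.4 CPM in controls (SD, n = 3), a log2 fold change of -1.31 (standard error 0.27, adjusted p = 0.00331 by exactTest). Ptgds had a log2 fold change of -0.85 (standard error 0.17, adjusted p = 0.00351 by exactTest). These 2 members were called, as were 72 (0.365%) of the genes tested, and 5 members had an unadjusted p under 0.05, as had 5.73% of genes. Lum (log2 fold change -1.04, adjusted p = 0.0617 by exactTest) and Foxd1 (-0.96, adjusted p = 0.0584) were not. The tools did not give the same calls on these 7 mice. DESeq2 called Ptgds (0.365% of genes), and exactTest on common and tagwise dispersions called Dcn, Lum and Ptgds (0.700%). The quasi-likelihood test and limma-voom called 0 of the 10 (0.00507% of genes each), with 5 at an unadjusted p under 0.05 in each, and the quasi-likelihood adjusted p was 0.396 for Dcn and 0.385 for Ptgds. E5386 was singled out by the level of these very genes, so the values without it are given as a description of the remaining 7 mice. Calls and p-values without E5386 in the gene lists below are likewise descriptions only.

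Without both E1776 and E5386, the mice lowest in nerve root markers in their genotypes, exactTest again called Dcn (log2 fold change -1.10, adjusted p = 0.000378) and Ptgds (-0.89, adjusted p = 0.0252) among 26 genes (0.133%). This choice was made after the data were seen. Without E5386 and E5642, the controls with muscle RNA, both genes were called by exactTest (0.333% of genes), with an adjusted p of 0.0348 for Dcn and 0.00393 for Ptgds. The fits without E1776 and E5386 and without E5386 and E5642 all lack E5386, which was singled out by these very genes. They too only describe the remaining mice and are not separate support for a genotype difference. Without E6732, exactTest called 0 of the 10 (0.451% of genes), with Slc22a6 and Ptgds at an unadjusted p under 0.05. The log2 fold change of Slc22a6 then turned from -1.08 to 1.25, on 5 to 9 counts in each remaining control. Without E5642 the log2 fold change was -0.63 for Dcn, -0.34 for Lum and -0.66 for Ptgds, each with an adjusted p of 1 by exactTest. With the skeletal muscle score as a covariate, the quasi-likelihood log2 fold change was -1.07 for Dcn, -0.79 for Lum, -0.89 for Ogn, -0.98 for Foxd1, -0.90 for Ptgds, -0.88 for Igf2, -0.66 for Slc6a13, -0.48 for Aldh1a2, -1.98 for Slc22a6 and 0.28 for Fmod, with none called (adjusted p = 0.999 for each). With the nerve root score as a covariate, also chosen after the data were seen, the quasi-likelihood log2 fold change was -0.41 for Dcn, 0.02 for Ogn, -0.07 for Lum, -0.58 for Foxd1 and -0.62 for Ptgds, with none called. With the muscle score, Foxd1, Slc22a6 and Ptgds had an unadjusted p under 0.05, as had 710 of 19470 genes. With the nerve root score these were Dcn, Foxd1 and Ptgds, and 1382 of 19470 genes.

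**Figure D5:**
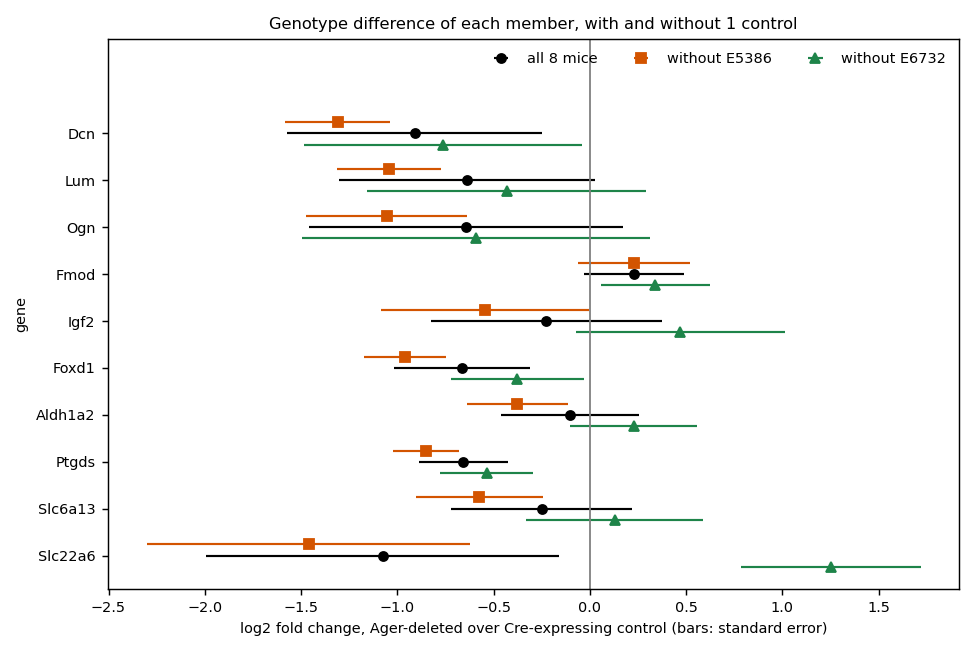
log2 fold change of Ager-deleted mice over Cre-expressing controls for each member, with the standard error of the quasi-likelihood fit, from all 8 mice (circles), without control E5386 (squares) and without control E6732 (triangles). Dcn moved from -0.91 to -1.31 without E5386, Slc22a6 from -1.08 to 1.25 without E6732, and Fmod stayed above 0 in all 3 fits.

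Most of the 46 other pial and arachnoid genes tested leaned the same way as the set, but less far. The median log2 fold change of the set was -0.64 with all mice. In E5386 the median level was 61.0% of the other mice for these genes and 31.4% for the set. With all mice, 41 had a lower value in Ager-deleted mice (median log2 fold change -0.29, against 0.01 for all genes), 0 were called by edgeR's exactTest, and 6 had an unadjusted p under 0.05. Over all genes 0.0719% were called and 4.26% had an unadjusted p under 0.05. Nnmt, a nicotinamide methyltransferase, was at 0.356, 0.404, 0.310 and 0.388 CPM in Ager-deleted mice and at 0.738, 0.587, 0.553 and 1.02 CPM in controls, with an adjusted p of 0.280 by exactTest. Genotypes did not overlap with all mice for 2 of the 46 genes, against 3.88% of all tested genes. These were Nnmt and the sulfate transporter Slc26a2, both chosen after their values were seen. Neither was low in E5386. The list's most abundant genes, Itih5 (226 ± 53.9 and 274 ± 38.8 CPM, SD, n = 4 each) and Col12a1 (98.1 ± 12.6 and 88.9 ± 12.2 CPM), differed by about the spread between mice. Without E5386, 42 were lower (median -0.59) and exactTest called 6, all lower in Ager-deleted mice: Mgp, Islr, Tbx18, Foxc2, Cped1 and Tgfbi. Over all genes exactTest then called 0.365%. Mgp, the matrix Gla protein that inhibits calcification, was at 14.3, 17.4, 13.1 and 18.9 CPM in Ager-deleted mice and at 9.71, 34.2, 32.5 and 47.1 CPM in controls (log2 fold change without E5386 -1.26, adjusted p 5.52e-09). Tbx18, a T-box factor of mural and meningeal cells, was at 0.610, 0.943, 0.931 and 0.879 CPM in Ager-deleted mice and at 0.520, 1.51, 1.85 and 2.24 CPM in controls (-1.17, adjusted p 0.00824). As in the set, E5386 was the lowest mouse of both, and it was lowest for 31 of the 46 genes. E5386 was singled out by its low level of meningeal genes, so calls and p-values without it only describe the remaining mice. With all mice the adjusted p of Mgp was 0.738 by exactTest. Common and tagwise dispersions, DESeq2, the quasi-likelihood test and limma-voom also each called 0 of the 46 with all mice. DESeq2 called 8 of the 46 without E5386 (0.365% of all genes), while the quasi-likelihood test and limma-voom called 0 (0.00507% of all genes each).

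Beyond the members, their own gene families held few differences with all 8 mice. Of 16 small leucine-rich proteoglycans tested, 10 had a lower value in Ager-deleted mice, 0 were called by edgeR's exactTest and 2 had an unadjusted p under 0.05, Ecm2 and Omd. Of all genes, 0.0719% were called and 4.26% had an unadjusted p under 0.05. Ecm2, a matrix protein encoded 75256 bases from Ogn, was at 17.5, 18.4, 18.8 and 14.4 CPM in Ager-deleted mice and at 19.3, 25.8, 22.9 and 27.2 CPM in controls (log2 fold change -0.46, standard error 0.12, exactTest adjusted p = 0.252). The genotypes did not overlap, and E5386 was the lowest control. Prelp and Bgn, the most abundant of the family outside the set, averaged 86.2 ± 12.2 and 84.1 ± 4.29 CPM, and 38.4 ± 5.09 and 44.7 ± 14.6 CPM (SD, n = 4 each). Without E5386 exactTest called Dcn, Ecm2 and Omd, against 0.365% of all genes.

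Retinoid, prostaglandin, insulin-like growth factor and transporter genes held few differences with all 8 mice and a few more without E5386. As background, with all mice exactTest called 0.0719% of all genes, and 4.26% had an unadjusted p under 0.05. Common and tagwise dispersions called 0.401% of all genes. Without E5386 exactTest called 0.365%. Of 18 retinoid genes 10 had a lower value in Ager-deleted mice, with 0 called by edgeR's exactTest and 1 at an unadjusted p under 0.05. That gene, Aldh1a3, makes retinoic acid like Aldh1a2 and was at 1.80, 2.88, 1.72 and 2.27 CPM in Ager-deleted mice and at 1.31, 5.22, 3.97 and 5.96 CPM in controls, again with E5386 lowest. Without E5386 exactTest called Aldh1a3 (log2 fold change -1.23, adjusted p = 0.00163) and Stra6, a receptor that takes up retinol (-0.83, adjusted p = 0.0284). The abundant Aldh1a1 (307 ± 56.3 and 344 ± 38.5 CPM) and Rxra (75.9 ± 1.83 and 71.7 ± 5.95 CPM) lay within the spread between mice. Of 14 prostaglandin genes exactTest called 0, and Ptgds alone without E5386, and 2 had an unadjusted p under 0.05, Ptgds and the cyclooxygenase Ptgs2. Hpgd (100 ± 37.1 and 102 ± 18.4 CPM) and Ptges3 (55.2 ± 4.63 and 59.7 ± 4.19 CPM) were close to equal. Of 14 insulin-like growth factor genes exactTest called 0, common and tagwise dispersions called H19, and 2 had an unadjusted p under 0.05, H19 and Igfbp4. H19, a noncoding RNA 72622 bases from Igf2, was at 1.52 to 3.69 CPM in Ager-deleted mice and at 26.6, 16.8, 2.11 and 5.20 CPM in controls, so its high mice were E5386 and E5642, those with muscle RNA, and not the mice high in Igf2. Without E5386 exactTest called Igfbp6, a binding protein that prefers IGF2 (log2 fold change -1.33, adjusted p = 0.00406), while the adjusted p of H19 was 0.377. Igfbp5 (535 ± 80.3 and 454 ± 97.1 CPM) and Igfbp2 (112 ± 58.9 and 107 ± 17.4 CPM) overlapped widely.

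Of 13 GABA and organic ion carriers, edgeR's exactTest called 0 and 2 had an unadjusted p under 0.05, Slco1a4 and Slc22a3, against 4.26% of all genes. Slco1a4, an organic anion transporter of brain endothelium, was at 70.9, 74.6, 61.4 and 62.0 CPM in Ager-deleted mice and at 78.3, 116, 107 and 86.7 CPM in controls (log2 fold change -0.53, standard error 0.12, exactTest adjusted p = 0.0713). With all mice it was called by DESeq2 and with common and tagwise dispersions, and without E5386 by exactTest too (-0.63, adjusted p = 0.00173). With all mice exactTest called 0.0719% of all genes, DESeq2 0.128% and common and tagwise dispersions 0.401%. Without E5386 exactTest called 0.365%. Its genotypes did not overlap, and it is also a marker of endothelium, of whose 12 markers 9 had lower values (median log2 fold change -0.03). Slc6a11, a GABA transporter of astrocytes, averaged 354 ± 87.5 and 306 ± 23.8 CPM (SD, n = 4 each), a difference within the spread between mice.

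Markers of the other cells a cord sample can hold are given beside these results, and their part in the members' values was not tested beyond the fits above. With all mice exactTest called 0.0719% of all genes, and 4.26% had an unadjusted p under 0.05 by it. Schwann cell genes had a lower value in Ager-deleted mice for 10 of 11, with 0 called by edgeR's exactTest and 1 at an unadjusted p under 0.05 (median log2 fold change -0.27, and -0.60 without E5386, when Pmp2 and Cdh19 were called, against 0.365% of all genes). Drp2, a dystrophin-related protein of Schwann cells, was at 128, 127, 187 and 135 CPM in Ager-deleted mice and at 91.0, 232, 206 and 153 CPM in controls. Border macrophage genes, from cells that live in the meninges and express Cx3cr1, had a lower value for 8 of 9, with 0 called and 0 at an unadjusted p under 0.05. Mrc1 was at 5.36, 10.3, 12.1 and 9.54 CPM in Ager-deleted mice and at 4.02, 13.3, 13.5 and 13.7 CPM in controls, and Ms4a7 averaged 9.01 ± 1.90 and 9.37 ± 3.48 CPM (SD, n = 4 each). E5386 and E1776 were thus the lowest mice of Mrc1 too, and of the border macrophage score (1.47 and 1.64). Ms4a7 was lowest in E5386 (5.91 CPM), but E1776, at 8.56 CPM, was above control E6578 at 6.86 CPM. Of 24 skeletal muscle genes 3 were called by edgeR's exactTest, Ckm, Myh4 and Atp2a1, and all 24 had lower values in Ager-deleted mice. Common and tagwise dispersions called 19 (0.401% of all genes) and DESeq2 called 4 (0.128%). The quasi-likelihood test and limma-voom called 0 (0.00514% of all genes each), with 22 and 0 at an unadjusted p under 0.05. By those tests 1307 and 1189 of all 19470 genes were under it. Without E5386 exactTest called 5 of the 24, Acta1, Ckm, Myh4, Atp2a1 and Actn3, and DESeq2 called 0 (0.365% of all genes each). Ckm was at 74.9 and 114 CPM in E5386 and E5642 and at 0.406 to 1.92 CPM in the other 6. Dcn was at 12.3 CPM in E5386 and at 276 CPM in E5642, its lowest and highest values.

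For the remaining lists exactTest called 0 genes with all mice, and common and tagwise dispersions called 3 hepatocyte genes and 1 each of the adipocyte, choroid plexus and mural genes. Without E5386 exactTest called the hepatocyte genes Alb and Cyp2e1, the choroid plexus gene Ttr and the tendon and muscle connective tissue gene Thbs4. Over all genes exactTest then called 0.365%. With all mice exactTest called 0.0719% of all genes and common and tagwise dispersions called 0.401%. By exactTest 4.26% of all genes had an unadjusted p under 0.05. At an unadjusted p under 0.05 were 2 of 5 adipocyte, 6 of 7 hepatocyte, 2 of 7 choroid plexus, 1 of 14 tendon and muscle connective tissue, 1 of 12 mural and 1 of 10 microglia genes. None was below it among 11 dura, bone and cartilage, 6 sensory ganglion, 12 oligodendrocyte, 10 astrocyte, 12 neuron and 8 ependymal genes, nor was Slc12a1, the only kidney gene tested. Ttr, which choroid plexus and liver both make, was at 28.1 CPM in E6732 and at most 0.520 CPM in the other 7. The adipocyte gene Fabp4 was at 109 CPM in E5386 and at most 6.39 CPM in the other 7. Among genes of the cord's own cells, Mbp was at 12500 ± 1080 and 11900 ± 718 CPM and Gfap was at 9160 ± 2010 and 8950 ± 742 CPM (SD, n = 4 each).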

How the data were processed

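Lumbar cord poly(A) RNA of 8 male mice was sequenced with a stranded kit, 4 per genotype, grouped by sample title. The authors deposited raw counts per gene, unnormalized, and a table of log2 TMM-normalized CPM. Per the labels, Trimmomatic 0.36, STAR 2.7.3a, SAMtools, featureCounts (Subread 1.6.3) and edgeR 3.26.8 were used on mm10, and the study names GENCODE M25. The strand setting of the counting is not given in the sources used here, so genes overlapping on opposite strands cannot be told apart. The deposited log2 values were checked against the counts (within 4.78e-06) and not otherwise used. There were 0 unused columns.

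Counts were filtered with filterByExpr (minimum 10), TMM-normalized and tested with edgeR 4.0.16 in R 4.3.3 (exactTest, estimateDisp without a design), Ager-deleted over control, with Benjamini-Hochberg adjustment over all genes and a threshold of 0.05. Standard errors are from the quasi-likelihood fit. Nothing says the mice were processed in separate batches. Alternatives were other normalizations, filters, dispersions, DESeq2 1.42.0, limma-voom (limma 3.58.1), covariates and mice left out. The scripts were tested on simulated data in which 200 genes were set to change by a log2 fold change of 1.5. There exactTest recovered 199 with 32 false calls, common and tagwise dispersions 199 with 29, and DESeq2 198 with 42. The quasi-likelihood test and limma-voom each recovered 197, with 13 and 12 false calls. Scores use a pseudocount of 1 CPM. Floors cover counting error only.

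The members and lists were chosen with earlier results of these data known, so no p-value is given for a score or adjusted over a list. The lists were written by hand: other pial and arachnoid genes, proteoglycan, retinoid, prostaglandin, insulin-like growth factor and carrier families, and markers of other tissues and cell types, to which a kidney tubule list was added after the data were seen. The genes named were drawn from the 10 members, in each list the 2 with the highest mean CPM and those past the threshold, the 10 most like the members' mean and Ager. Any other gene was chosen after its values were seen. Positions are from GENCODE M21 (GRCm38), an earlier release than M25, matched by symbol, and promoter sequences are from RefSeq.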

Additional observations from a re-analysis of the deposited data

Results flagged for a closer look

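Within each genotype of 4 mice, the gap between the most extreme mouse and its nearest neighbour was divided by the group's range on the log2(CPM + 1) scale, for the 10 genes and for 7 list scores. Of 34 groups examined, 9 exceeded Dixon's value of 0.829, which chance exceeds in about 1 of 20 groups. Control E5386 was far below the other controls for Ogn (ratio 0.93, 1.71 against 6.62 for the next mouse), Dcn (0.883, 3.73 against 7.60) and Lum (0.829, 1.10 against 4.40). The same control was far below the others in the Schwann cell and nerve root score (0.857, 2.24 against 4.59) and the border macrophage score (0.845, 1.47 against 2.16). Ager-deleted E1776 was far below its group in the border macrophage score (0.843, 1.64 against 2.02) and in Slc22a6 (0.902, on 8 counts). Control E6732 was far above the other controls in Slc22a6 (0.919, 2.28 against 0.35) and in the hepatocyte score (0.978, 6.21 against 2.30). The groups share mice, so the 9 values are not independent of each other.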

How the results depend on the processing

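The 10 log2 fold changes were recomputed under 21 alternatives (20 for Slc22a6, which a mean CPM of at least 1 removes). Of 209 values, 192 kept their sign and their side of the threshold, 6 became called and 11 changed sign. The called values were Dcn and Ptgds, each in 3 fits: without E5386, without E5386 and E5642, and without E1776 and E5386. All of these fits left out E5386. The number of members called was 2 in each of these fits and 0 under the others; it ranged from 0 to 2 with each mouse left out in turn. With E5386 left out together with another choice it was 3 with common and tagwise dispersions and 1 with DESeq2. Sign changes were, with limma-voom, Lum 0.061, Ogn 0.15 and Slc22a6 0.0034; with the nerve root score as a covariate, Ogn 0.015; without E1776, Igf2 0.06 and Aldh1a2 0.07; without E5231, Fmod -0.060; and without E6732, Igf2 0.47, Slc6a13 0.13, Slc22a6 1.25 and Aldh1a2 0.23. None of these passed the threshold. Dcn was at -0.32 with limma-voom, against -0.91. On leaving out 1 mouse at a time, log2 fold changes ranged from -1.31 (without E5386) to -0.63 (without E5642) for Dcn, from -1.04 to -0.34 for Lum without the same mice, from -1.16 (without E5248) to -0.39 (without E1776) for Ogn, from -0.96 (without E5386) to -0.38 (without E6732) for Foxd1, from -0.66 to 0.47 for Igf2, from -0.58 to 0.13 for Slc6a13, from -1.46 to 1.25 for Slc22a6, from -0.38 to 0.23 for Aldh1a2 and from -0.060 to 0.40 for Fmod. The genes called over all genes were 14, against 3 at a mean CPM of at least 1, 1 with the quasi-likelihood test, with limma-voom and with either covariate, 25 with DESeq2, 78 with common and tagwise dispersions, 67 without E5386 and E5642 and 26 without E1776 and E5386. With each mouse left out in turn they were 3 to 98 (53 without E5248, 72 without E5386, 89 without E6732). With E5386 left out they were 138 with common and tagwise dispersions, 72 with DESeq2 and 1 with each of the quasi-likelihood test and limma-voom. The meningeal score difference of -0.15 ranged from -0.73 (without E5386 and E5642) to 0.13 (without E6732) and was 0.0025 without E1776. Every move was smaller than the SD of the 4 controls (1.03), which E5386 itself widens: the -0.65 without E5386 lay further from -0.15 than the SD of either genotype in those 7 mice (0.331 and 0.306). The cause of these changes was not tested. No paired analysis was possible because the mice carry IDs and the genotypes share no replicate numbers. With 4 mice per genotype, a permutation p cannot fall below 0.0286, and Slc22a6, Foxd1 and Igf2 rest on as few as 5, 22 and 26 counts per mouse.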
